A study of Mus musculus with 31 samples.

Results

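Tumors of K5ΔNβcat mice were compared with the large hyperplasias of mice with the same transgene, to describe what is gained and what is lost at the step from a large mammary lesion to a tumor. The samples were chosen by their titles, and they are 16 of the 31 samples of the series, 11 tumors and 5 large hyperplasias, each hybridised to its own Affymetrix mouse genome array. In K5ΔNβcat mice the promoter of keratin 5 drives a stabilized β-catenin that lacks its N-terminal end, so that Wnt signaling is switched on in the basal cell layer of the mammary epithelium and of other epithelia that use this promoter. The labels give C57BL6 as the strain of all groups, whereas the study's methods describe a 129SV/C57BL6 background, and they give no age for a tissue sample. The 5 small hyperplasias of K5ΔNβcat mice and the 4 control mammary tissues of the series are set beside the results as ranges only. All 25 tissue arrays entered 1 model, and the sorted cells of the series did not.

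β-catenin acts in the nucleus with factors of the Tcf and Lef family. In skin, strong β-catenin signaling turns epithelial cells toward hair follicle fates, in which placode genes and hedgehog signals act first and the hair keratins follow, whereas squamous differentiation builds the cornified envelope of the surface epidermis. Mammary glands arise from the same embryonic ectoderm, and mammary lesions with active β-catenin are known to hold squamous and hair-like structures.

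Values are MAS5 signals, on which each array was scaled to a mean of 100 without its lowest and highest 2% of signals, and 30 is the background cut-off of the study's methods. A log2 difference is the difference between the group means of log2(signal + 16), tumor minus large hyperplasia, which is smaller than the ratio of signals for dim genes. The 5 large hyperplasias had median signals of 29.8 to 32.9 and correlated with each other at Spearman values of 0.939 to 0.966. Tumors had medians of 23.9 to 29.6 and correlated with large hyperplasias at 0.890 to 0.945. Arrays have no read depth, so the number of arrays limits the precision, and the labels do not say that samples of a group came from separate animals, so p-values measure only the spread between these samples.

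Some samples stood apart. Tumors 1 to 3 had a higher median signal than every other tumor, more hair keratin signal and more milk protein signal, and many results are given with and without them. *H2-Ea*, the α chain gene of the MHC class II E molecule, had signals of 2299, 2045, 2168, 2541 and 2306 on large hyperplasias 1 to 5. On the tumors it was 1382 in tumor 4 and between 0.524 and 6.89 in the other 10, and it ranged from 0.825 to 6.21 in small hyperplasias and from 0.831 to 44.9 in control tissue. *Ifi202b*, an interferon-inducible gene that differs in level between inbred strains, ran the other way, at 21.1, 19, 20.7, 12.6 and 1.28 in large hyperplasias and from 148 to 869 with a median of 414 in tumors. Of the small hyperplasias, 1 had a signal of 414 for *Ifi202b* and the others 9.92 to 17.5. As background, mice of the C57BL/6 haplotype do not transcribe *H2-Ea*. Whether the groups differ in the alleles they carry was not tested, and such a difference and the stage of the lesion cannot be told apart here.

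Of 23747 probe sets tested, 4979 were higher in tumors (21.0%) and 7821 were lower (32.9%), at an adjusted p under 0.05 from limma. Taken by gene, with the brightest probe set standing for each, 2667 of 11747 were higher (22.7%) and 3750 were lower (31.9%). In 1172 genes every tumor lay above every large hyperplasia (9.98%), and in 1624 every tumor lay below (13.8%). The split between rises and falls depends on the scaling, since quantile normalization gave 5982 probe sets higher and 6152 lower, 49.3% of calls higher against 38.9%. Without tumors 1 to 3 the genes called were 22.6% higher and 32.2% lower. These shares are the background for each gene list below, and the median log2 difference over all genes tested was -0.07. A gene was tested where the higher of its group medians was at least 30. One that was dim in tumors was therefore tested only if brighter in large hyperplasias, and the reverse. The share of each list that was called runs from the cornified envelope, where nearly every gene was higher, to adipocyte and B cell genes, where every gene was lower.

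**Figure D1:**
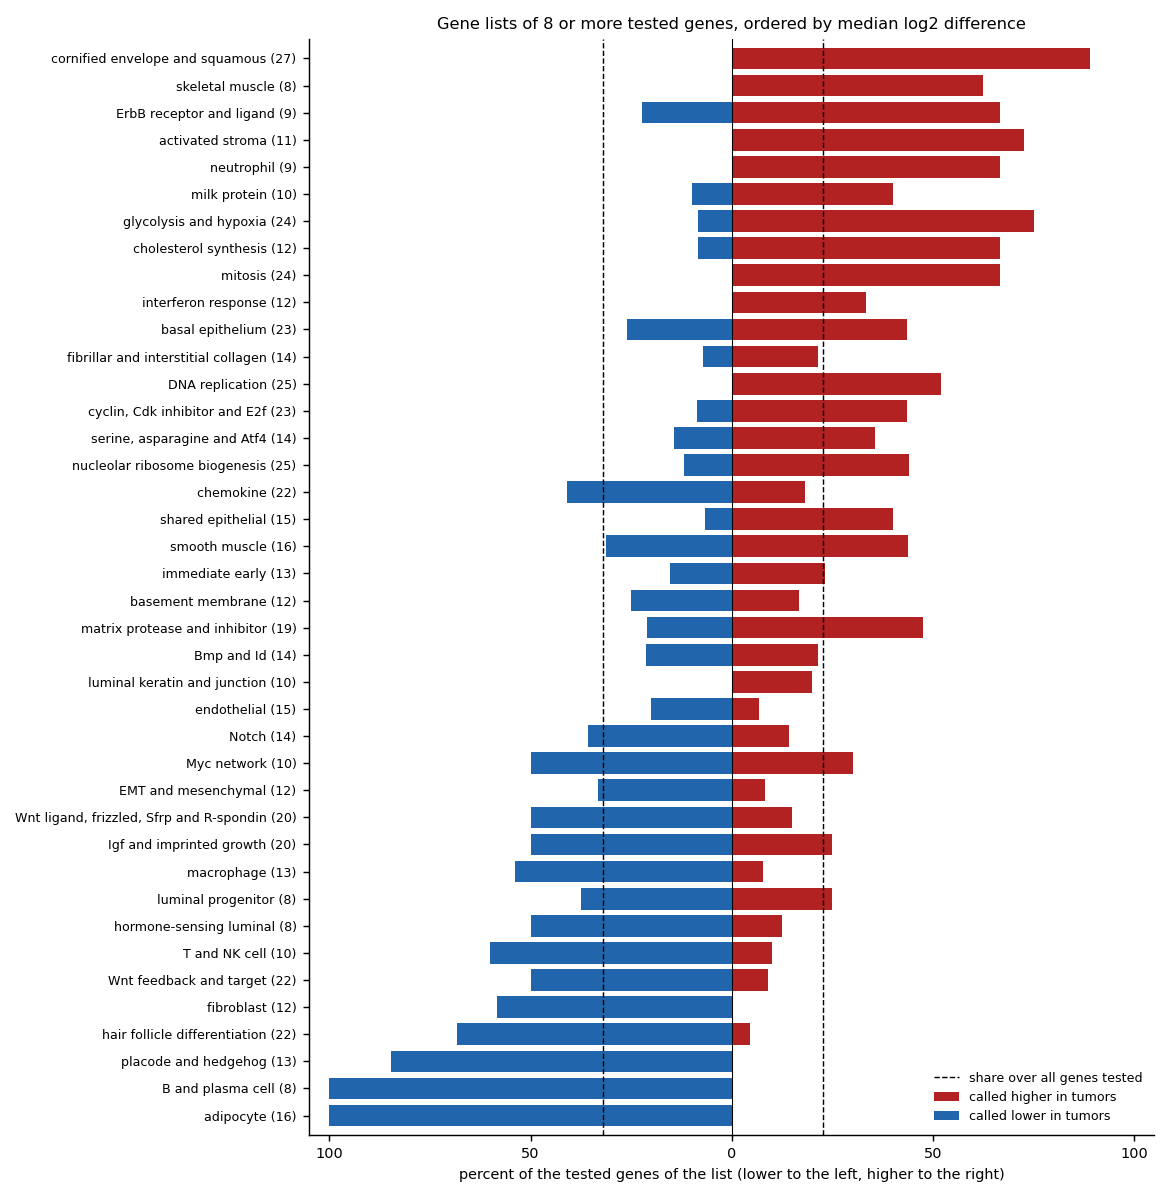
Percent of the tested genes of each list called higher in tumors (right, red) or lower (left, blue), for the 40 lists with at least 8 tested genes, with that number in parentheses and the lists ordered by their median log2 difference. Dashed lines mark 22.7% and 31.9%, the shares over all genes tested. The cornified envelope list reaches 88.9% higher, and the adipocyte list is 100% lower.

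Genes of squamous differentiation were higher in tumors. Of 27 tested genes of the cornified envelope and its layers, 24 were called higher and 0 lower, with a median log2 difference of 2.52, and in 19 every tumor lay above every large hyperplasia. Without tumors 1 to 3 the counts were 24 and 0, with a median of 2.47. The genes not called were *Sprr1a* (0.05), *Dsg1a* (0.68) and *Cdsn* (-0.01).

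*Krt1* encodes a keratin of the suprabasal epidermis, and large hyperplasias 1 to 5 had signals of 138, 340, 128, 84.5 and 116 for it. In tumors it ranged from 1030 to 5262 with a median of 3403, higher by 4.30 in log2 (standard error 0.34, adjusted p = 5.8e-10). No tumor reached down to the highest large hyperplasia, and small hyperplasias spanned 92.1 to 567. *Rptn*, which encodes repetin of the cornified envelope, had 96.7, 266, 104, 55 and 116 in large hyperplasias and ranged from 729 to 3614 with a median of 2467 in tumors (log2 difference 4.16, adjusted p = 6.8e-10). *Lor*, which encodes loricrin, the main envelope protein, had 58.4, 25, 28.4, 39.2 and 26.7 in large hyperplasias and from 117 to 2603 with a median of 963 in tumors (log2 difference 4.10, adjusted p = 5.2e-08). In both genes the lowest tumor was above the highest large hyperplasia, and for *Lor* that lowest tumor, at 117, was tumor 11, which was also the lowest for *Krt1* and *Rptn*.

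The small proline-rich proteins are cross-linked into the envelope. For *Sprr1b* the large hyperplasias had 69, 162, 70.4, 35.6 and 44 and the tumors from 1451 to 3694 with a median of 1953, higher by 4.77 in log2 (adjusted p = 7.7e-10). Large hyperplasia 2 was the highest of its group for *Krt1*, *Rptn* and *Sprr1b*, and still lay below every tumor. *Hrnr*, which encodes hornerin, was under 30 in all large hyperplasias (9.97, 25.5, 11.1, 8.5 and 15.5) and from 44.2 to 1912 with a median of 728 in tumors, so that it was at least 18.5-fold higher (adjusted p = 7.2e-07). *Csta1* and *Stfa2l1* encode inhibitors of cysteine proteases, and they rose by 4.52 and 4.63 on the log2 scale (adjusted p = 1.5e-11 and 2.1e-11), again with no overlap. Their tumor signals ranged from 699 to 3010 with a median of 1456 and from 617 to 2925 with a median of 1306, against at most 113 and 89.4 in large hyperplasias.

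Many of these genes lie side by side in the epidermal differentiation complex. In the RefSeq order of GRCm38.p6, 59 protein-coding genes lie from *S100a9* to *S100a10*, and 33 of them were tested here. Of these, 28 were higher and 1, *Tchhl1* of the hair follicle (-0.43), was lower. The median log2 difference along the complex was 3.43, and in 26 genes no tumor overlapped a large hyperplasia. Some genes that rose had large hyperplasia medians under 30, such as *Lce3a* at 8.92 and *Hrnr* at 11.1. These were tested only because the tumors were brighter, which favors rises in the count and the median. Late cornified envelope genes were among those without overlap, with *Lce1c* at 7.1, 38.3, 42.2, 15.2 and 20 in large hyperplasias and from 239 to 2359 with a median of 943 in tumors (log2 difference 4.37, adjusted p = 3.5e-08). The neighbours that were not called were *Prr9* (-0.25), *Sprr1a* (0.05), *Tchh*, which encodes trichohyalin of the hair follicle (-0.47), and *S100a10* (0.26). The cluster limits were set after these values were seen. Near-identical *Sprr2* and *Lce1* copies may share signal, since probes of copies can bind the same RNA, so single copies are uncertain.

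**Figure D2:**
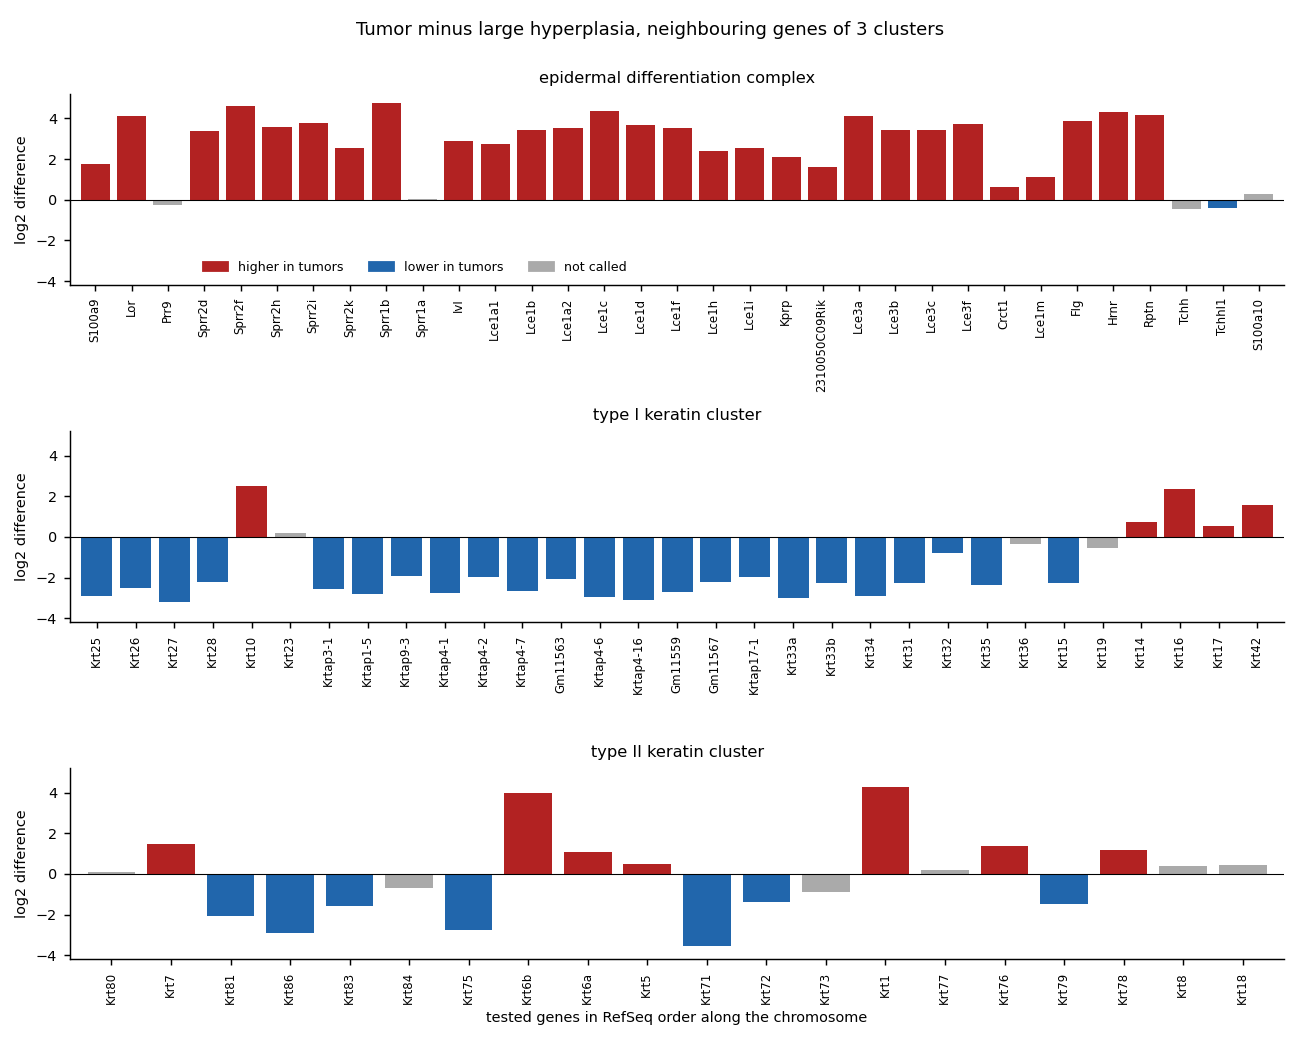
Log2 difference, tumor minus large hyperplasia, of each tested gene of 3 gene clusters, in RefSeq order along the chromosome, coloured by call (red higher, blue lower, grey not called). Along the epidermal differentiation complex 28 of 33 genes are higher, and in the type I keratin cluster 23 of 31 are lower, with *Krt10*, *Krt14*, *Krt16*, *Krt17* and *Krt42* higher.

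Hair follicle genes went the other way in most tumors. Of 22 tested genes of hair follicle differentiation, 15 were lower and 1 was higher, with a median log2 difference of -1.25. Genes dim in tumors, such as *Krt86* with a tumor median of 19.25, were tested only because the large hyperplasias were brighter. This favors falls in the count and the median. No gene of the list separated the groups completely, and without tumors 1 to 3 18 were lower, 14 of them with no overlap. Tumors 1 to 3 were set apart partly for their hair keratin signal, so a sharper fall without them follows from that choice. *Krt71*, a keratin of the inner root sheath, had signals of 1679, 2303, 1192, 1166 and 855 in large hyperplasias. In tumors 1 to 3 it was 478, 651 and 1213, and in tumors 4 to 11 it ranged from 12.1 to 104. The log2 difference over all tumors was -3.54 (standard error 0.65, adjusted p = 7.2e-05).

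*Krt27*, another inner root sheath keratin, had 927, 1470, 859, 921 and 686 in large hyperplasias, 274, 359 and 1014 in tumors 1 to 3 and 12 to 105 in tumors 4 to 11 (log2 difference -3.19, adjusted p = 5.4e-05). Only tumor 3 lay within the range of the large hyperplasias. *Krt33a* and *Krt86*, which are keratins of the hair shaft, differed by -2.99 and -2.92 in log2 (adjusted p = 5.5e-04 and 1.9e-04). For *Krt33a*, tumors 1 to 3 had 236, 221 and 482, within the range of the large hyperplasias at 277, 739, 446, 553 and 188, and tumors 4 to 11 ranged from 0.359 to 43.1. Small hyperplasias held these keratins too, from 536 to 748 for *Krt71* and 109 to 456 for *Krt33a*, while control tissue stayed at or below 19.4 and 0.74.

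Transcription factor genes of the list were among those lower. *Lef1*, a partner of β-catenin, differed by -1.45 in log2 (adjusted p = 8.8e-06), *Hoxc13*, a regulator of hair keratin genes, -1.38 (1.0e-04), and *Msx2*, a homeobox gene of the hair matrix, -0.98 (0.0022). The gene that rose was *Padi3*, an enzyme that converts arginine to citrulline in hair and epidermal proteins, with 112, 218, 113, 122 and 80.4 in large hyperplasias and from 213 to 475 with a median of 312 in tumors (log2 difference 1.27, adjusted p = 4.6e-05).

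The type I keratin genes form a cluster in which epidermal and hair genes are neighbours. Of its 31 tested genes, 23 were lower and 5 higher, with a median of -2.25. Without tumors 1 to 3 the median was -3.00 and 21 genes lay below the large hyperplasias with no overlap, which again follows in part from how those tumors were chosen. Many genes that fell had tumor medians under 30, such as *Krt26* at 5.85 and *Krtap4-2* at 6.53. These were tested only because the large hyperplasias were brighter. The genes of the cluster that rose were *Krt10* (2.52), the suprabasal partner of *Krt1*, the basal keratin gene *Krt14* (0.74), *Krt16* (2.36) and *Krt17* (0.54) of activated epidermis, and *Krt42* (1.58). In the type II cluster 7 of 20 genes were higher and 7 lower with a median of 0.17, and 6 and 9 of 19 without tumors 1 to 3 with a median of -0.23. Here *Krt6b* of activated epidermis (4.00) and *Krt1* (4.30) rose beside the falls of *Krt71* and of *Krt75*, a keratin of the companion layer (-2.76). The keratin-associated protein genes of the cluster are similar copies, and their single values are uncertain.

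**Figure D3:**
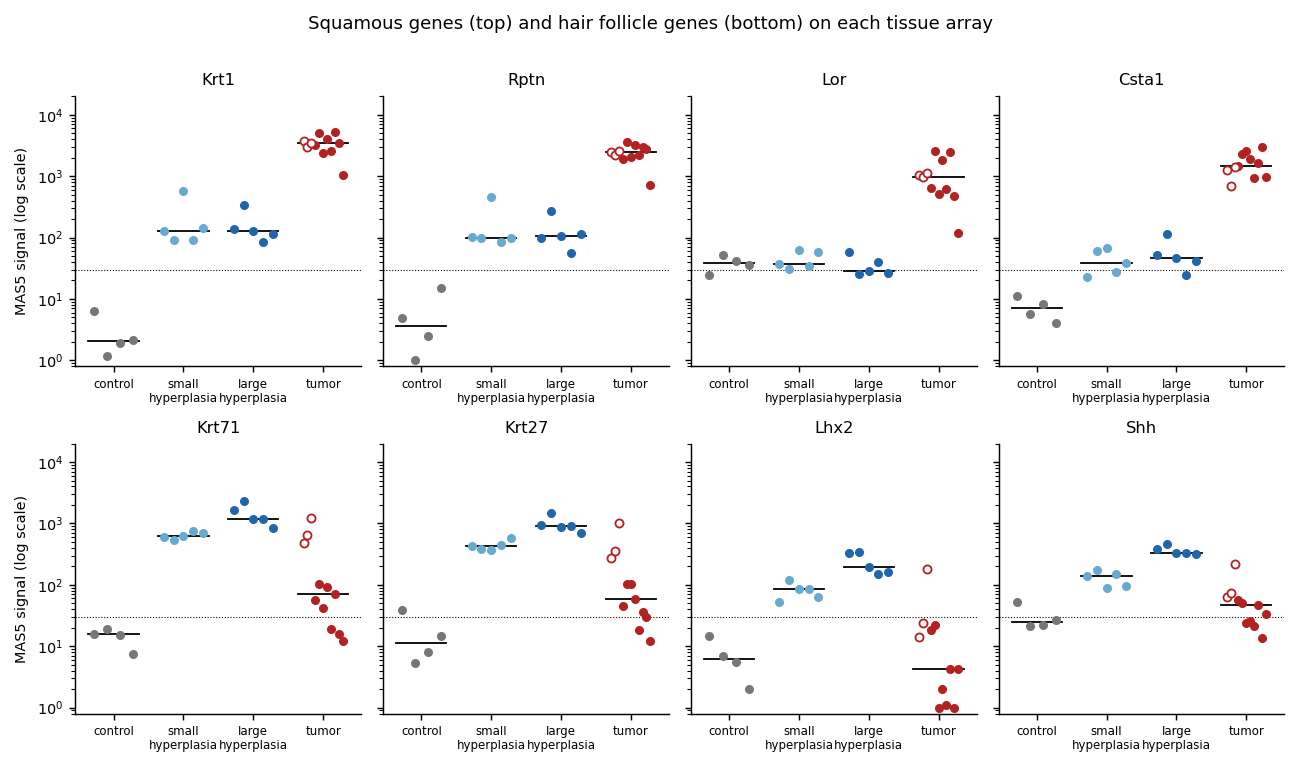
MAS5 signal (log scale, values under 1 drawn at 1) of 4 squamous genes (top) and 4 hair follicle genes (bottom) on each tissue array, with group medians as bars and a dotted line at 30. Open circles are tumors 1 to 3. All tumors lie above the large hyperplasias for the squamous genes, and tumors 1 to 3 lie above tumors 4 to 11 for *Krt71* and *Krt27*.

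Placode and hedgehog genes were lower in tumors, with 11 of 13 tested called lower and 0 higher, a median log2 difference of -1.30 and 7 genes with no overlap. Of 17 genes with a probe set, 4 were not tested. Genes dim in tumors, such as *Hhip* and *Lhx2*, were tested only because the large hyperplasias were brighter, which favors falls in the count and the median. Unlike *Krt71*, *Krt27* and *Krt33a*, several genes of this list separated tumors 1 to 3 from large hyperplasias as well. *Shh*, which encodes the ligand Sonic hedgehog, had 383, 457, 335, 332 and 313 in large hyperplasias and ranged from 13.8 to 218 with a median of 47 in tumors (log2 difference -2.61, standard error 0.31, adjusted p = 1.9e-07). All tumors were lower, with tumor 3 the highest at 218, and small hyperplasias at 88.6 to 172 lay below every large hyperplasia and above every tumor but tumor 3.

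*Ptch1*, which encodes the hedgehog receptor and is itself a target of the pathway, had 2235, 2182, 1994, 1514 and 1755 in large hyperplasias and from 131 to 1203 with a median of 383 in tumors (log2 difference -2.51, adjusted p = 2.3e-06), again without overlap. *Hhip*, a target that binds the ligand, was under 30 in every tumor (highest 21.5) and 78.6, 70.3, 72, 69.8 and 70.8 in large hyperplasias, at least 2.41-fold lower in tumors (adjusted p = 5.8e-09). *Gli1*, a transcription factor and target gene, differed by -1.99 in log2 (adjusted p = 1.6e-07). *Lhx2*, a transcription factor of follicle stem cells, had 328, 338, 194, 149 and 160 in large hyperplasias and from 0.295 to 183 with a median of 4.29 in tumors (log2 difference -3.05, adjusted p = 7.7e-07), and tumor 3, at 183, was the only one to overlap. *Gli3* (-0.13) and *Wnt10a* (0.40) were not called.

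The promoter of *Edar*, the ectodysplasin receptor gene of placodes, is shown with that of *Sp5*, since the letters of a Tcf/Lef site, CTTTGAT, are found in both and both genes were lower in tumors. *Edar* differed by -0.90 in log2 (adjusted p = 7.3e-04) and *Sp5*, a transcription factor gene used as a readout of Wnt signaling, -1.16 (adjusted p = 8.4e-05). Each sequence is the 250 bases before the start of the gene, 5′ to 3′ on the strand of the gene, from RefSeq on GRCm38.p6, with the match in capitals.
*Sp5*, chr2:70474673-70474922, plus strand: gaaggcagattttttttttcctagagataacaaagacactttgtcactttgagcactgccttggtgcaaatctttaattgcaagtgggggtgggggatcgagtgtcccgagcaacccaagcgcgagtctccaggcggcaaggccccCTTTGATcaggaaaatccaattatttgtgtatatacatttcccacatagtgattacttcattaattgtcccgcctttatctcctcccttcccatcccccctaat
*Edar*, chr10:58675697-58675946, minus strand: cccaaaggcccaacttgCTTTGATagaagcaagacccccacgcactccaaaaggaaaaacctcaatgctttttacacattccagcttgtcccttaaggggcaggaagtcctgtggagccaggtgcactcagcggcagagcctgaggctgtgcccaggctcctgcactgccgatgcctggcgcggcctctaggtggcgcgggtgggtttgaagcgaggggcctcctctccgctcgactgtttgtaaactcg
The match begins 104 bases before the start of *Sp5* and 233 bases before that of *Edar*. CTTTGAT was searched on both strands and occurs in 3.73% of all 32851 windows of 300 bases, in 2.6% of the windows of genes tested here, and in 2.38% and 2.77% of those of genes higher and lower in tumors. It was in 2 of 10 windows of Wnt feedback genes and 1 of 9 of placode and hedgehog genes that were lower, but also in 2 of 17 windows of cornified envelope genes and 1 of 13 of mitosis genes that were higher, and in 0 of 10 of hair follicle genes that were lower. A match of letters is a description and not a site in use.

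More feedback and target genes of Wnt signaling were lower than higher. Of 22 tested, 11 were lower and 2 higher, with a median log2 difference of -0.64, and 4 lay below and 2 above with no overlap. Without tumors 1 to 3 these were 13 lower and 2 higher, a median of -0.76, and 7 below and 2 above. *Lgr5*, a receptor for R-spondins that marks stem cells of the follicle and gut, had 649, 633, 693, 419 and 554 in large hyperplasias and from 21 to 263 with a median of 63.3 in tumors (log2 difference -2.75, standard error 0.33, adjusted p = 3.3e-07). *Lgr6*, its relative in the follicle isthmus, had 737, 694, 603, 369 and 638 and from 18.9 to 257 with a median of 62.6 (log2 difference -2.85, adjusted p = 8.1e-07). Every tumor lay below every large hyperplasia for both receptors, with tumors 2 and 3 the highest for *Lgr5*.

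Inhibitors that Wnt signaling induces moved in both directions. *Axin2*, which scaffolds β-catenin destruction, differed by -0.50 in log2 (adjusted p = 0.019), *Notum*, a secreted enzyme that inactivates Wnts, -1.46 (1.1e-05), and *Rnf43*, a ligase that removes frizzleds, -1.02 (8.7e-04). *Dkk1*, a secreted Wnt antagonist, was under 30 in all large hyperplasias (13.1, 22.3, 9.11, 12.4 and 16.4) and ranged from 26.6 to 544 with a median of 182 in tumors, at least 5.94-fold higher (adjusted p = 6.1e-06). *Dkk3*, of the same family, rose by 1.46 (adjusted p = 1.2e-06), with 127, 132, 154, 81.6 and 102 in large hyperplasias and from 208 to 573 with a median of 357 in tumors. The targets *Ccnd1* (-0.08, adjusted p = 0.76), *Myc* (0.03, 0.9) and *Cd44* (-0.07, 0.74) were not called, and the signs of the first 2 turned with single samples or probe sets.

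Of 20 Wnt ligands, frizzleds and secreted modulators, 10 were lower and 3 higher, with a median of -0.33. *Fzd4*, a frizzled receptor with a role in blood vessels, had 650, 398, 403, 507 and 412 in large hyperplasias and from 65.9 to 133 with a median of 86.3 in tumors (log2 difference -2.23, adjusted p = 1.8e-10). Control tissue had 2852 to 3860 for it and small hyperplasias 558 to 1442, so the highest large hyperplasia overlapped the lowest small one. The genes that rose were the ligand *Wnt9a* (1.28, adjusted p = 3.1e-06), the receptor *Fzd6* (0.72, 0.0013) and the modulator *Sfrp2* (1.03, 0.038). The call of *Sfrp2* was lost without any of 4 large hyperplasias or 4 tumors, and *Fzd6* was not called by its other probe set.

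Ligands of the ErbB receptors rose while their receptors did not. Of 9 genes tested, the 6 that rose were all ligands, and *Egfr* (-0.39, adjusted p = 0.0065) and *Erbb2* (-0.44, 0.0027), the receptors that were called, were lower. *Epgn*, which encodes epigen, had 31.6, 25.3, 23.5, 22.2 and 20 in large hyperplasias and from 305 to 1550 with a median of 538 in tumors, higher by 3.92 in log2 (standard error 0.26, adjusted p = 3.6e-11). *Tgfa*, which encodes TGFα, had 128, 148, 98.5, 85.6 and 85.2 and from 211 to 667 with a median of 395 (log2 difference 1.77, adjusted p = 3.9e-08), and *Hbegf* rose by 1.71 (7.4e-05). None of these ligands overlapped between the groups. *Nrg1*, a ligand of ErbB3 and ErbB4, was under 30 in large hyperplasias and at least 1.57-fold higher in tumors (adjusted p = 1.4e-07). *Egfr* was called by 3 of its 5 tested probe sets.

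Among genes of insulin-like growth factors and imprinted growth control, 5 of 20 rose and 10 fell, with a median of -0.47. *Igf2*, a fetal growth factor expressed from the paternal allele, had 71.3, 121, 65.8, 102 and 103 in large hyperplasias and from 1040 to 4870 with a median of 3869 in tumors, higher by 4.97 in log2 (standard error 0.36, adjusted p = 1.5e-10). Every tumor was above every large hyperplasia, whereas the small hyperplasias spanned 78.9 to 1157 and reached into the range of the tumors, and control tissue had 70 to 134. *Igfbp2* and *Igfbp3*, which bind these factors, rose by 2.18 and 2.43 (adjusted p = 6.7e-07 and 3.5e-07). *Igf1r*, which encodes the receptor, differed by -1.22 in log2 (adjusted p = 5.0e-07).

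The imprinted genes moved in both directions. *Peg3*, a paternally expressed zinc finger gene, had 408, 232, 321, 426 and 544 in large hyperplasias and from 24.4 to 104 with a median of 57.9 in tumors (log2 difference -2.46, adjusted p = 4.6e-06). *Cdkn1c*, which encodes the cell cycle inhibitor p57, had 219, 132, 255, 190 and 207 and from 9.43 to 68.8 with a median of 20.9 (log2 difference -2.36, adjusted p = 4.2e-09). *Nnat*, which encodes neuronatin, fell by 3.75 (adjusted p = 7.1e-09), and *Meg3*, a maternally expressed noncoding RNA, rose by 0.99 (0.012). *Igf2r*, the receptor that clears Igf2, was not called (0.01).

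The largest rise among the named genes was that of *Rhox5*, a homeobox gene of the reproductive tract that lies on the X chromosome. It was 10.5, 3.43, 6.79, 0.37 and 8.04 in large hyperplasias and from 256 to 2186 with a median of 917 in tumors, at least 28.4-fold higher (adjusted p = 3.6e-11). It was above 30 in all 11 tumors and under 30 on every large hyperplasia, small hyperplasia and control array.

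The casein genes *Csn1s1* and *Csn2* were among the largest rises. *Csn1s1*, for αS1-casein, had 15.6, 16.8, 20, 45.3 and 11 in large hyperplasias, 5079, 3753 and 6886 in tumors 1 to 3 and 191 to 2352 in tumors 4 to 11 (log2 difference 5.18, adjusted p = 1.1e-07). *Csn2*, for β-casein, had 108, 51.6, 15.2, 28.5 and 29.8 in large hyperplasias, 5775, 4639 and 6004 in tumors 1 to 3 and 172 to 2433 in the others (log2 difference 4.57, adjusted p = 2.0e-06). Both genes were above every large hyperplasia in every tumor. Of 4 casein genes tested, 3 were higher. *Csn1s2a* rose by 4.59 (adjusted p = 7.1e-04), with overlap between the groups. *Csn3*, for κ-casein, was not called (0.74, adjusted p = 0.35). Its median signals were 1018 in tumors and 678 in large hyperplasias, and the groups overlapped. *Wap*, for whey acidic protein, was 3797, 259 and 4828 in tumors 1 to 3 and 10.5 to 181 in the others, and its call (adjusted p = 0.024) was lost without large hyperplasia 2 or 3 (log2 difference 2.46 each). Of 10 milk protein genes tested, 4 rose and 1 fell with a median of 0.77. Without tumors 1 to 3, 9 were tested, of which 3 rose and 3 fell, with a median of -0.06. Those tumors were set apart partly for their milk protein signal, so a lower median without them follows in part from that choice.

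**Figure D4:**
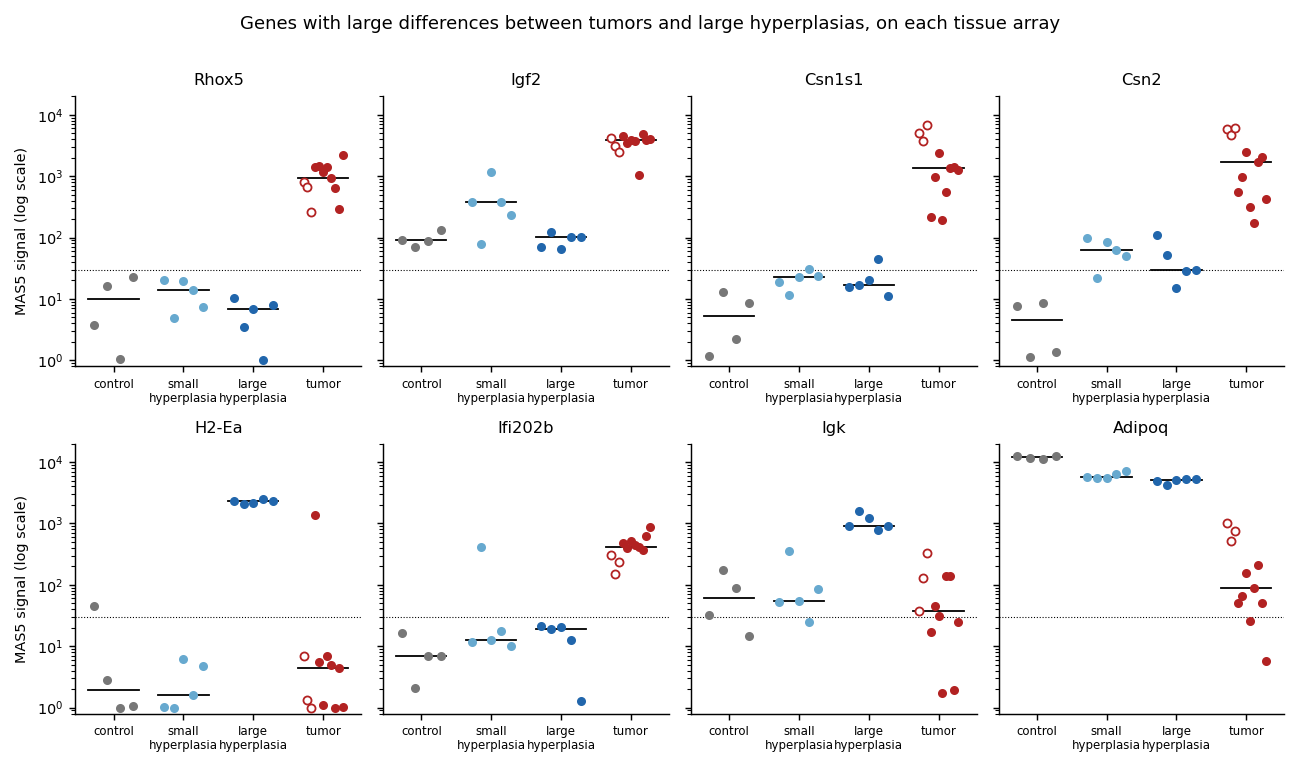
MAS5 signal (log scale, values under 1 drawn at 1) of 8 genes on each tissue array, with group medians as bars, a dotted line at 30 and open circles for tumors 1 to 3. *Rhox5* lies above 30 only in tumors, *H2-Ea* is high in all 5 large hyperplasias and in 1 tumor, and *Igk* and *Adipoq* are lower in all tumors than in all large hyperplasias.

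Genes of the cell cycle rose by small amounts. Of 24 mitosis genes, 16 were higher and 0 lower with a median log2 difference of 0.50, and of 25 DNA replication genes 13 were higher and 0 lower with a median of 0.24. In no mitosis gene were the groups free of overlap, and in 7 replication genes every tumor lay above. *Cdc20*, an activator of the anaphase-promoting complex, had 185, 256, 228, 450 and 315 in large hyperplasias and from 448 to 747 with a median of 531 in tumors (log2 difference 0.98, adjusted p = 1.1e-05). Large hyperplasia 4 was the highest of its group for *Cdc20*, *Bub1*, *Nuf2* and *Birc5*, mitotic genes that rose by 0.70 to 0.98 on the log2 scale.

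*Rrm2*, a subunit of ribonucleotide reductase, made the largest change of the replication genes, with 180, 212, 188, 271 and 213 in large hyperplasias and from 430 to 981 with a median of 668 in tumors (log2 difference 1.61, adjusted p = 2.6e-08), and no overlap. *Mcm4*, of the replicative helicase, rose by 0.59 (8.4e-05). *Mki67*, the common marker of cycling cells, was not called: large hyperplasias had 391, 414, 417, 591 and 450 and tumors from 383 to 492 with a median of 437 (log2 difference -0.02, standard error 0.11, adjusted p = 0.87), against 60 to 74.3 in control tissue.

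The promoters of mitosis genes often hold the letters TTTGAA of the cell cycle homology region, a site of the DREAM complex, and those of *Cdc20* and *Cdk1*, the mitotic kinase gene (0.68, adjusted p = 5.7e-04), are shown with these letters in capitals. They are the 250 bases before the start, 5′ to 3′ on the strand of the gene, from RefSeq on GRCm38.p6.
*Cdc20*, chr4:118437344-118437593, minus strand: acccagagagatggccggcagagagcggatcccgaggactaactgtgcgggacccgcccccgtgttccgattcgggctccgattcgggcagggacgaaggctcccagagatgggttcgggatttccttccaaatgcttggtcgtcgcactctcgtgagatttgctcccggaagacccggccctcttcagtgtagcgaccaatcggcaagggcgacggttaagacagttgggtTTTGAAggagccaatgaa
*Cdk1*, chr10:69352913-69353162, minus strand: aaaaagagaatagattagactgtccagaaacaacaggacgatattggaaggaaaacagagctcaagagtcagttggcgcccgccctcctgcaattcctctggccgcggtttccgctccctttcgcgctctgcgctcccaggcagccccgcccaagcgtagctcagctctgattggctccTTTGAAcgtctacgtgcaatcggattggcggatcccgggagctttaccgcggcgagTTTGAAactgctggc
The match begins 18 bases before the start of *Cdc20* and 71 and 15 bases before that of *Cdk1*. TTTGAA, searched on both strands, was found in 8 of 13 windows of mitosis genes that rose, in 12.3% of the windows of genes tested and in 17.9% of all windows. Of the 11 windows of replication genes that rose, TTTCCCGC was in 2 and TTTGGCGC in 3, both spelled after E2f sites, against 1.92% and 0.951% of the windows of genes tested. CACGTG, the E-box of Myc and related factors, was in 10.2% of windows of genes that rose, 9.23% of those that fell and 9.86% of those tested. The lists were chosen by function, so these counts describe their genes only.

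Among cyclins, Cdk inhibitors and E2f genes, 10 of 23 rose and 2 fell. *Ccne1*, for cyclin E1, had 31.8, 30.4, 31.3, 32.9 and 23.8 in large hyperplasias and from 61.8 to 143 with a median of 109 in tumors (log2 difference 1.30, adjusted p = 9.7e-08). *Cdkn2a*, which encodes p16 and p19Arf, was under 30 in large hyperplasias and from 48.7 to 130 with a median of 92.5 in tumors, at least 2.76-fold higher (adjusted p = 1.5e-07). *Cdkn2c*, for p18, fell by 1.39 on the log2 scale (1.6e-06). *Rb1* (-0.31, 0.028) also fell, and this call was lost without large hyperplasia 2, 3 or 4.

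Of 25 genes of ribosome biogenesis, 11 rose and 3 fell with a median of 0.19, and in 3 every tumor lay above. The largest was *Nhp2* of the box H/ACA snoRNPs, at 0.68 (adjusted p = 1.3e-04), and the falls of *Pes1*, *Rrp9* and *Utp20*, at -0.21 to -0.28, were each lost under quantile normalization. In the Myc network 3 of 10 rose and 5 fell. *Max*, the partner of Myc, had 36.4, 34.6, 26.9, 50.5 and 44.7 in large hyperplasias and from 103 to 239 with a median of 147 in tumors (log2 difference 1.65, adjusted p = 1.5e-04), with small hyperplasias at 23 to 202. *Mga*, a Max-binding repressor, fell by 0.80 (2.9e-07).

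Genes of glycolysis and the hypoxia response were higher, 18 of 24, with 2 lower, a median of 0.71 and 11 with no overlap. *Egln3*, a prolyl hydroxylase induced by hypoxia, had 528, 414, 213, 202 and 233 in large hyperplasias and from 572 to 1897 with a median of 1403 in tumors (log2 difference 1.98, adjusted p = 1.4e-06). *Slc2a1*, the glucose transporter Glut1, had 433, 470, 416, 280 and 369 and from 759 to 2141 with a median of 1406 (log2 difference 1.72, adjusted p = 1.3e-07), and *Car9*, for carbonic anhydrase IX, rose by 1.61 (8.6e-06). No tumor overlapped for these 3 genes. *Pfkfb3*, a regulator of glycolysis, fell by 0.89 (5.7e-04), and it was brightest in control tissue at 968 to 1274. *Aldoa*, for an aldolase, differed by -0.29 in log2 (adjusted p = 0.05), a call lost without single samples, and another of its probe sets differed in sign.

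Of 12 genes of cholesterol synthesis, 8 rose and 1 fell, with a median of 0.68. *Cyp51* (lanosterol demethylase) had 128, 166, 160, 129 and 126 in large hyperplasias and from 288 to 526 with a median of 425 in tumors (log2 difference 1.46, adjusted p = 8.0e-09), and *Msmo1* and *Sqle*, which act beside it, rose by 1.44 and 1.32 (1.2e-08 and 5.2e-09), all with no overlap. *Insig1*, which retains the sterol sensor in the endoplasmic reticulum, fell by 1.33 (1.5e-07). In the serine and Atf4 list 5 of 14 rose and 2 fell, with *Psat1* at 1.09 (2.7e-07) and *Phgdh*, the step before it, at -0.64 (3.3e-04).

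**Figure D5:**
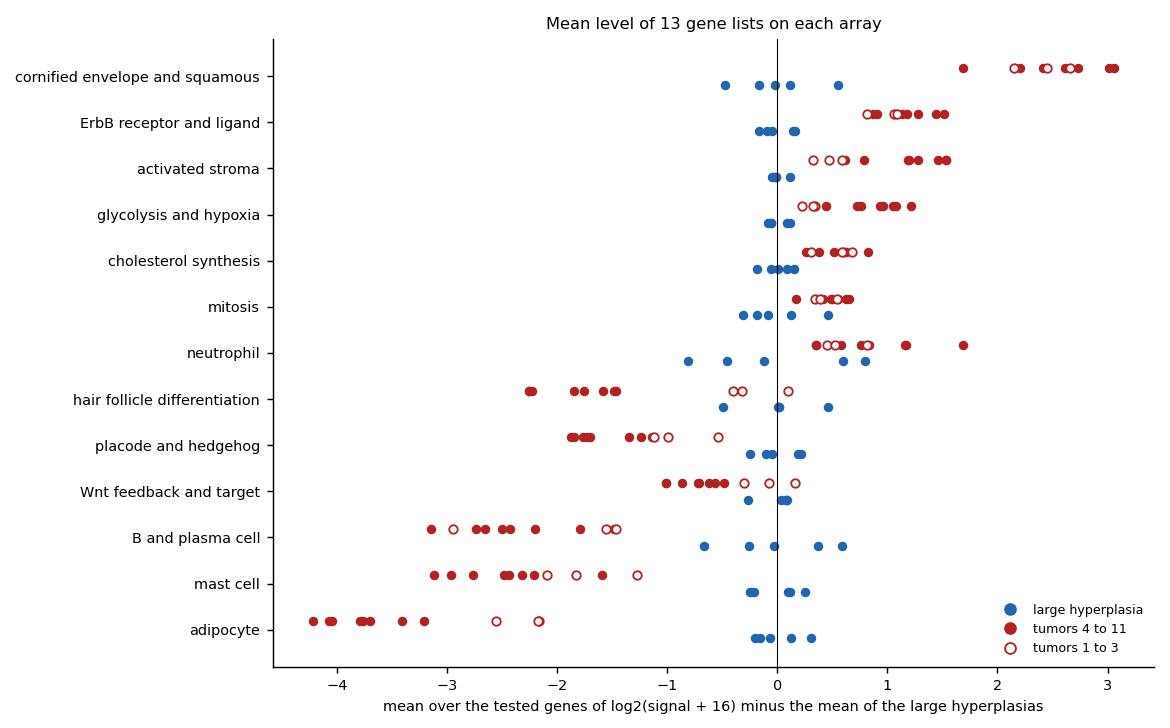
Mean over the tested genes of 13 lists of log2(signal + 16) on each array, minus the mean of the 5 large hyperplasias (blue), for tumors 4 to 11 (filled red) and tumors 1 to 3 (open red). Tumors 1 to 3 sit among the large hyperplasias for hair follicle genes, close to them for Wnt feedback genes and apart from them for cornified envelope, mast cell and adipocyte genes.

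Of all lists, that of adipocyte genes had the lowest median. All 16 adipocyte genes tested were lower in tumors, with a median log2 difference of -2.94 and no overlap in any of them. *Adipoq*, for adiponectin, had 4947, 4301, 5107, 5241 and 5238 in large hyperplasias and from 5.64 to 1004 with a median of 89.6 in tumors (log2 difference -5.11, adjusted p = 2.5e-07), and the highest tumors were tumors 1 to 3. The summed signal of the 16 genes ran from 2335 to 12228 in tumors and from 34442 to 43917 in large hyperplasias, against 89683 to 99362 in control tissue. In such bulk tissue, fewer cells of a type and less RNA per cell cannot be told apart. Of the 12 largest falls, *Adipoq*, *Retn*, *Pck1*, *Cidec*, *Plin4* and *Gpd1* are on the adipocyte list, and *Cdo1* and *Ces1d* are enzyme genes with known expression in fat. The part of this loss in the other falls was not tested.

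Stroma genes split. Of 12 fibroblast genes 7 were lower and 0 higher (median -0.99), with summed signals between 18500 and 20925 in large hyperplasias and between 7056 and 13575 in tumors. *Dpt*, for dermatopontin, had 1518, 1449, 1386, 1594 and 1342 in large hyperplasias and from 72.5 to 671 with a median of 322 in tumors (log2 difference -2.35, adjusted p = 9.9e-06), and *Dcn*, for decorin, fell by 1.31 (4.0e-05). In contrast, 8 of 11 genes of activated stroma were higher and 0 lower (median 0.98). *Tnc*, for tenascin C, had 353, 334, 348, 223 and 215 in large hyperplasias and from 758 to 4027 with a median of 2476 in tumors (log2 difference 2.63, adjusted p = 7.5e-07), with no overlap.

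Collagen counts turned on tumors 1 to 3. Of 14 fibrillar and interstitial collagen genes 3 were higher and 1 lower, and 7 and 0 without tumors 1 to 3. *Col12a1* had 79.8, 148, 148, 111 and 109 in large hyperplasias and from 465 to 2504 with a median of 986 in tumors (log2 difference 2.86, adjusted p = 1.4e-07), and *Col8a1* rose by 2.70 (7.8e-09), whereas *Col1a1* (0.04) and *Col3a1* (-0.31) were not called. The call of *Col15a1*, which was lower, was lost under quantile normalization (-0.40). Of 12 basement membrane genes 2 rose and 3 fell, the largest change being that of *Lama2*, for the laminin α2 chain, at -1.89 (5.8e-09).

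Of 19 matrix proteases and inhibitors, 9 rose and 4 fell. *Mmp13*, a collagenase gene, had 186, 202, 389, 167 and 169 in large hyperplasias and from 366 to 4174 with a median of 2946 in tumors (log2 difference 3.10, adjusted p = 2.2e-06), where large hyperplasia 3, the highest, lay above the lowest tumor. *Mmp10*, for stromelysin 2, was under 30 in large hyperplasias and from 50.7 to 870 with a median of 230 in tumors, at least 8.21-fold higher (6.5e-06), and *Mmp9*, a gelatinase gene, rose by 2.46 (3.5e-06). The protease inhibitor gene *Timp4*, high in fat, fell by 2.79 (3.4e-07).

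Lymphoid and mast cell genes were lower in tumors. All 8 B and plasma cell genes tested were lower (median -2.07), 4 of them with no overlap. Of 10 with a probe set, 2 were not tested. A gene dim in tumors was tested only if brighter in large hyperplasias, which favors falls in the count. The summed signals of the 10 ranged from 810 to 6957 in tumors and from 13090 to 28125 in large hyperplasias. The sums were 2222 to 10424 in small hyperplasias and 2870 to 10019 in control tissue. *Jchain*, which joins secreted antibodies, had 5653, 4023, 4250, 2844 and 3053 in large hyperplasias and from 93.2 to 1877 with a median of 393 in tumors (log2 difference -3.32, adjusted p = 2.1e-05). *Igk*, the κ light chain locus, had 920, 1593, 1205, 767 and 902 and from 1.75 to 329 with a median of 37.3 (log2 difference -4.04, 4.1e-06), with 24.8 to 361 in small hyperplasias and 14.4 to 173 in control tissue. For *Igk*, tumors, small hyperplasias and control tissue overlapped, and every large hyperplasia was above all of them.

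All 5 mast cell genes tested were lower, each with no overlap (median -2.25), and 2 others with a probe set were not tested. Genes dim in tumors, such as *Tpsb2*, were tested only because the large hyperplasias were brighter, which favors falls in the count and the median. *Tpsb2*, for a mast cell tryptase, had 143, 125, 141, 135 and 144 in large hyperplasias and from 6.49 to 37.3 with a median of 17.5 in tumors (log2 difference -2.25, adjusted p = 3.0e-11), and it was also at 134 to 170 in small hyperplasias and 89.1 to 130 in control tissue. Of 10 T and NK cell genes 6 were lower and 1 higher. *Cd3e*, of the T cell receptor complex, had 110, 70.2, 61.2, 80.1 and 55.7 in large hyperplasias and from 5.47 to 48 with a median of 16.2 in tumors (log2 difference -1.40, adjusted p = 2.0e-05), and the gene that rose was *Gzmb*, for granzyme B (1.26, 0.0081). Of the 10, 3 were lower under quantile normalization, and 4 without tumors 1 to 3 or without any of large hyperplasias 1 to 4.

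MHC class II genes were lower, 6 of 6, with a median of -0.66. *H2-Eb1*, the partner chain of the E molecule, had 3256, 2690, 3187, 3386 and 3214 in large hyperplasias and from 1148 to 2657 with a median of 1871 in tumors (log2 difference -0.85, adjusted p = 7.5e-05), so it was present in the tumors whose *H2-Ea* signal was under 7. For *H2-Aa*, 1 of 3 other probe sets gave a difference of the other sign (0.61). Of 13 macrophage genes 7 were lower and 1 higher. The marker *Cd68* fell by 0.90 (0.0057), whereas *Arg1*, for arginase 1, rose by 1.36 (0.0083), with 1016, 811, 687, 247 and 720 in large hyperplasias and from 551 to 3791 with a median of 1867 in tumors.

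Neutrophil genes were more often higher than lower. Of 9 neutrophil genes 6 were higher and 0 lower (median 0.86), with summed signals between 2513 and 9401 in large hyperplasias and between 8477 and 19294 in tumors. *Cxcr2*, a chemokine receptor, had 20.8, 31, 19.4, 6.04 and 10.7 in large hyperplasias and from 36.9 to 138 with a median of 51.9 in tumors (log2 difference 1.21, adjusted p = 6.0e-05). *S100a8* (1.34, 0.0011) and *S100a9* (1.74, 2.7e-04) are made by neutrophils and also by squamous epithelium. *S100a9* alone had a median of 5544 in tumors and 1293 in large hyperplasias, a large part of the summed signals. The sums are therefore not a measure of neutrophils alone. The ligands of Cxcr2 *Cxcl5* and *Cxcl1* rose by 2.66 and 2.59 (2.2e-06 and 5.1e-07), with no overlap for either. In contrast, *Cxcl13*, which attracts B cells, fell by 2.23 (6.3e-06), and *Ccl5*, which attracts T cells, by 1.76 (1.8e-04). Of 22 chemokine genes 4 rose and 9 fell. Among 12 interferon response genes 4 rose, led by *Oas1a* at 1.25 (1.2e-04), and 0 fell.

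Basal epithelial genes were at high levels in both groups. *Krt14* had 3788, 2879, 2742, 1827 and 2382 in large hyperplasias and from 3600 to 5539 with a median of 4288 in tumors (log2 difference 0.74, adjusted p = 4.4e-05), *Krt5* rose by 0.48 (0.0061), and *Trp63*, for p63, was not called (0.41, 0.051). Of 23 basal genes 10 rose and 6 fell. The falls were led by *Krt15*, a keratin of follicle bulge cells, with 2825, 2231, 2087, 1215 and 1905 in large hyperplasias and from 58.5 to 1733 with a median of 423 in tumors (log2 difference -2.25, adjusted p = 3.0e-04). *Sfn*, for 14-3-3σ, which is also high in squamous layers, rose by 1.19 (6.5e-05). *Sox10*, a transcription factor gene of Schwann cells and of mammary epithelium, was 141, 157 and 252 in tumors 1 to 3, 16.6 to 40.6 in tumors 4 to 11 and 220, 178, 225, 289 and 341 in large hyperplasias (log2 difference -2.04, adjusted p = 2.0e-04).

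Luminal genes showed a mixed picture. Of 8 hormone-sensing genes 4 were lower and 1 higher (median -0.53). *Foxa1*, which opens chromatin for the estrogen receptor, had 215, 278, 239, 390 and 493 in large hyperplasias, 228, 212 and 66.2 in tumors 1 to 3 and 22.5 to 190 in the others (log2 difference -2.00, adjusted p = 1.0e-04). *Esr1* fell by 0.63 (0.011), and its other probe set showed no call (-0.01). Of 10 luminal keratin and junction genes 2 rose and 0 fell, and without tumors 1 to 3 these were 2 and 3. *Cldn4*, of tight junctions, rose by 1.30 (1.7e-05), and *Krt18* was not called (0.44, 0.16). Of 8 luminal progenitor genes 2 rose and 3 fell, with *Aldh1a3* at 1.19 and *Kit* at -1.03 (2.7e-05 and 0.0018). Without tumors 1 to 3 these were 1 and 5, and the median was -0.73 against -0.52. Among 15 pan-epithelial genes, 6 were called higher and 1 lower, with a median of 0.17, and 6 and 3 without tumors 1 to 3.

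Of 16 smooth muscle genes 7 were higher and 5 lower. *Actg2* and *Acta2*, for the smooth muscle actins, rose by 1.84 and 0.53 (9.5e-05 and 0.0059), and *Myh11*, a myosin of smooth muscle, and *Oxtr*, the oxytocin receptor of myoepithelium, fell by 1.20 and 1.96 (8.9e-06 and 9.4e-05). Of 8 skeletal muscle genes tested 5 were higher and 0 lower, and 9 of 9 without tumors 1 to 3. Without any single one of tumors 1, 2, 5, 9 or 10, 8 were higher. Most of these genes passed the filter on low values through the tumors alone, with summed signals of 185 to 5617 in tumors and 118 to 276 in large hyperplasias, where 11 of 12 markers were under 30 on every array. Sums in control tissue, 714 to 1938, lay within the range of the tumors. Relative to large hyperplasias, the mean log2 level of the list was 1.77 to 4.11 in tumors 3, 4, 6, 7, 8 and 11. It was highest in tumor 3, and only 0.09 to 0.36 in tumors 1, 2, 5, 9 and 10. Of 15 endothelial genes 1 rose and 3 fell (median -0.06), and 3 and 2 without tumors 1 to 3. Of 7 pericyte genes 2 rose and 2 fell, but 1 rose without any of large hyperplasias 2 to 5 or of tumors 2, 6, 8, 10 or 11. Of 4 Schwann cell genes 3 fell, and the only red blood cell gene tested was not called.

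The medians of the Notch, Bmp, transition and immediate early lists lay between -0.23 and 0.15. Of 14 Notch genes 2 rose, *Jag1* (0.92, adjusted p = 2.4e-07) and *Nrarp* (0.90, 7.7e-06), and 5 fell. Of 14 Bmp and Id genes 3 rose and 3 fell, with *Fst*, for the activin and Bmp antagonist follistatin, at 1.30 (2.0e-04). Of 12 genes of epithelial-mesenchymal transition 4 fell and 1 rose, with *Zeb2* at -1.66 (2.0e-07). Of 13 immediate early genes 3 rose and 2 fell, with *Fosl1*, an AP-1 subunit, under 30 in large hyperplasias and at least 2.26-fold higher in tumors (3.1e-06).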

How the data were processed

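Total RNA of tissue was extracted with Trizol, prepared by an Affymetrix one-cycle protocol and hybridised by the authors, who made the deposited signal intensities with MAS5 in Affymetrix Expression Console (version not given in the sources used here) at a target of 100. From these intensities, 64 control probe sets were left out of 45101, the offset 16 was added and log2 taken. limma 3.58.1 in R 4.3.3 (lmFit, contrasts.fit, eBayes with trend) was fitted to the 25 tissue arrays of 4 groups, and the tumor and large hyperplasia groups were contrasted where the higher of their medians was at least 30. Calls are Benjamini-Hochberg adjusted p under 0.05 over all probe sets tested. Adjusted p-values in the report are from this fit.

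Platform annotation named 1 gene for 34945 probe sets, several for 932 and none for 9160. A gene is represented by its brightest probe set of 1 symbol, by mean log2 signal over the tissue arrays. Where every array of a group was under 30, fold changes are given as at least the mean of the bright group over 30. Named were the 12 largest rises and falls among called genes without overlap and with a higher median of at least 100, up to 4 called genes of each of 45 lists, up to 5 called against the rest, and Krt5, Krt14, Trp63, Krt18, Acta2, Esr1, Myc, Ccnd1 and Mki67. Other genes named in the report (among them Krt10, Krt16, Krt17, Krt42, Krt6b, Krt75, Tchh, Lef1, Hoxc13, Msx2, Gli1, Sp5, Edar, Axin2, Notum, Rnf43, Igf1r, Cdk1, Col1a1 and genes given as not called) were chosen after their values were seen. The members and lists were chosen with earlier results of these data known. Of 734 listed genes, 690 had a probe set.

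The fit was tested on simulated data, made from the group means of these arrays with independent normal noise of each probe set's spread. Changes were placed only in brighter probe sets, and 96% of 2-fold and 100% of 4-fold changes were called. These shares do not cover dim genes or differences that many genes of a sample share. Samples with the same replicate number were no more alike than others, and the main fit did not pair them. Alternatives were the offset, the filter, quantile normalization, the samples in the fit, array weights, a replicate block, the methods' t-test and 2-fold rule, and each sample left out.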

Additional observations from a re-analysis of the deposited data

Results flagged for a closer look

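Of 227 named genes, 20 had a large hyperplasia whose gap to the nearest other one, over the range of the 5, passed Dixon's 95% value of 0.71. For normal values chance flags about 1 in 20 groups. The signals used here were not on the log scale and the genes are not independent, so that rate may not hold. Large hyperplasia 2 was the highest for the squamous genes *Krt1* (340, the others 84.5 to 138), *Rptn* (266, the others 55 to 116) and *Sprr1b* (162, the others 35.6 to 70.4), for the epithelial regulator gene *Ovol1* (123, the others 73.1 to 83.3) and for *Nrarp* (543, the others 424 to 446), and the lowest for *H2-Eb1* (2690, the others 3187 to 3386). These 5 genes in which it was the highest were called higher in tumors, and it lay below every tumor for *Krt1*, *Rptn*, *Sprr1b* and *Nrarp*.

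Large hyperplasia 1 was the highest for *Igha*, the IgA heavy chain gene (10416, the others 4326 to 5424), *Hhip* (78.6, the others 69.8 to 72), *Hmga2* (38.5, the others 22.2 to 26.1) and the endothelial gene *Sox18* (284, the others 167 to 197). Large hyperplasia 3 was the highest for *Mmp13* (389, the others 167 to 202) and the pericyte marker *Anpep* (392, the others 237 to 266). Large hyperplasia 4 was the highest for *Csn1s1* (45.3, the others 11 to 20) and the lowest for the matrix gene *Thbs1* (189, the others 238 to 257). Large hyperplasia 5 was the highest for *Ccnd1* (1308, the others 1009 to 1066), *Csn1s2a* (16.7, the others 0.584 to 3.89), *Fzd3* (151, the others 113 to 123) and the endothelial gene *Sox17* (169, the others 71.6 to 94.3), and the lowest for *Ccne1* (23.8, the others 30.4 to 32.9) and *Igfbp3* (133, the others 174 to 190).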

How the results depend on the processing

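The counts over all probe sets, 4979 higher and 7821 lower, ranged from 4536 to 5014 and from 7228 to 7874 when each sample was left out. Samples with the same replicate number were no more alike than others. Their deviations from the group means correlated at -0.133 to -0.001, against -0.114 to 0.095 for samples with other numbers. A shared animal need not show in this measure, so it does not settle whether samples were paired. A fit with the replicate block called 3943 probe sets higher and 5656 lower. Under the methods' 2-fold rule 1229 were higher and 2255 lower, since it asks for a size that the test does not. That rule also left 4 Wnt ligand and receptor genes lower, 4 mitosis genes, 1 DNA replication gene and 9 glycolysis and hypoxia genes higher, and the replicate block left 10 mitosis and 8 replication genes higher. Leaving out each sample gave 16 to 16 adipocyte genes lower, 24 to 25 cornified envelope genes higher, 15 to 16 hair follicle, 11 to 11 placode and hedgehog, 10 to 12 Wnt feedback, 7 to 11 Wnt ligand and receptor and 9 to 11 Igf and imprinted genes lower, and 13 to 17 mitosis, 11 to 13 replication and 18 to 19 glycolysis and hypoxia genes higher.

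Leaving out each sample gave log2 differences from -0.19 to 0.01 for *Ccnd1* (0.01 without tumor 5), from -0.07 to 0.07 for *Mki67* (0.07 without large hyperplasia 4) and from -0.02 to 0.13 for *Myc* (below 0 without large hyperplasia 2 or 3 or tumor 1). The sign also turned for *Ccnd1* in the 2-fold rule (0.04) and at another probe set (0.22), for *Mki67* in the 2-fold rule (0.07) and for *Myc* without tumors 1 to 3 (-0.05), an alternative chosen after seeing the data. At other probe sets it turned for *Aldoa* (0.22), *Egfr* (0.03), *H2-Aa* (0.61), *Nip7* (-0.16) and *Trp63* (-0.25). The cause was not tested. Over the named genes and the samples left out 1 at a time, 3503 values kept direction and side of the threshold, 116 of 26 genes lost the call and 6 gained it, among them *Trp63* (0.46 without large hyperplasia 1). Under the other settings 2350 values were kept and 137 of 70 genes lost. Signals near 30 are near background, and arrays of bulk tissue cannot tell cell number from RNA per cell.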
